A study of Mus musculus with 12 samples.

Results

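Tcf7, Lef1, S1pr1, Klf2, Klf3, Satb1, Bach2, Id3 and Il7r mark naive and long-lived memory T cells, and these 9 genes were followed through cultures of mouse helper T cells. They were chosen by symbol with earlier results of these data known. Matched by Ensembl identifier, they are 9 of the 39179 gene identifiers in the count tables. All 4 groups held CD4 T cells from lymph nodes and spleen that carry a single transgenic receptor (OT-II) for a peptide of ovalbumin, so every group shares 1 antigen specificity. Wild-type cells (WT, strain C57BL/6 x OT-II) and cells without the activating receptor NKG2D (KO, strain OT-II x NKG2D-/-) grew together on antigen-presenting cells loaded with this peptide, and anti-CD28 was added. Cytokines in the Th1 cultures were IL-2 and IL-12, beside an antibody to IL-4. Th17 cultures contained IL-1b, IL-6, IL-23 and antibodies to IFNg and IL-4, and also IL-12 after the second stimulation. Polarization began on day 0 and was repeated on day 5. On day 8 the cells were sorted by their Thy1 allele, and WT cells also had to display NKG2D, so genotype, Thy1 allele and the NKG2D gate differ together between KO and WT. Each group (Th1 WT, Th1 KO, Th17 WT, Th17 KO) has 3 libraries of poly-A RNA, 12 in all. The ages of the mice, and whether libraries of a group came from separate animals or cultures, are not given in the sources used here, and the p-values therefore rest on the spread between libraries, which may be technical.

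TCF-1, the product of Tcf7, and its relative LEF-1 are DNA-binding proteins of the WNT pathway that maintain naive and memory T cells and give way as effector cells mature. KLF2, itself kept on by FOXO1 in resting cells, drives the gene for S1PR1, the receptor for sphingosine 1-phosphate that lets T cells leave lymph nodes. SATB1 organises chromatin in thymocytes and T cells, BACH2 represses effector genes, ID3 blocks E proteins, and the IL-7 receptor alpha chain encoded by Il7r carries the survival signal of resting cells.

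Levels are given as CPM, the reads of a gene scaled to a common library total after TMM normalisation. Th1 libraries held 9108203 to 12688637 counts. Totals of only 2731909, 1647232 and 1722228 were found in Th17 WT 2, Th17 WT 3 and Th17 KO 2, of which 18.3%, 48.1% and 51.0% fell on 1 gene identifier, and the other 3 Th17 libraries held 10405299 to 11587560. These 3 libraries are called shallow, and a count of 0 in them still allows 1.19, 3.11 and 3.15 CPM, against at most 0.284 CPM in the other 9 (3 counts, counting error only). Klrk1, which encodes NKG2D, lay between 128 and 161 CPM in WT libraries and between 1.60 and 5.63 CPM in KO libraries, as labelled. The summed level of 7 CD4 T cell markers was 8894 to 10497 CPM in all libraries.

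The promoter windows of the members came from RefSeq (GRCm38.p6), 250 bases before to 50 after each annotated start, and 8 of the 9 genes had at least 1, 16 windows in all. Each was searched on both strands for GTAAACA (FOXO factors), CTTTGAT and CTTTGAA (TCF and LEF factors), and GGGTGTG and GGGCGTG (KLF factors). Only 3 windows held a match, and these are the windows printed. Capitals mark the matches, and positions count from 1 at the first transcribed base. A Tcf7 window, chr11:52282546-52282845 on the minus strand, holds GGGTGTG at -69 and GTAAACA at 2, and these do not overlap. The Id3 window, chr4:136143572-136143871 on the plus strand, holds GGGTGTG at -51. A Satb1 window, chr17:51833241-51833540 on the minus strand, holds the reverse complement of GGGTGTG at -51. Tcf7 and Satb1 have other windows, and these hold no match.
Tcf7: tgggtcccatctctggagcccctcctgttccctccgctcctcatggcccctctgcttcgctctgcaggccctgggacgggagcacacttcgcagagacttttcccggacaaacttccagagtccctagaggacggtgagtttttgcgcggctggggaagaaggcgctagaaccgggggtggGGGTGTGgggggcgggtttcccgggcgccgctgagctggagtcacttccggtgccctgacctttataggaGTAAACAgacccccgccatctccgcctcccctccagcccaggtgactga
Id3: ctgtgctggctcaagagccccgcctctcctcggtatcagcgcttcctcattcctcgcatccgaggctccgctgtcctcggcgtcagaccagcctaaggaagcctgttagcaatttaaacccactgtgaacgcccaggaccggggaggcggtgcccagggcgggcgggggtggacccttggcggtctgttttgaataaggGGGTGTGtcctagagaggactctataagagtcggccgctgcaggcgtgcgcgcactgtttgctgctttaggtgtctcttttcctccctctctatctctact
Satb1: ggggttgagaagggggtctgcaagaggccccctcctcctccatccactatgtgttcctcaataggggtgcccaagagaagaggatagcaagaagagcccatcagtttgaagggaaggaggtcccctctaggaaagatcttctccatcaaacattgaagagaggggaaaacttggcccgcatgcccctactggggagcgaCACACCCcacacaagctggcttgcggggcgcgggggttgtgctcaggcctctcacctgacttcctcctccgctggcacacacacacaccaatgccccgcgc
Of the 16 windows of the members, 1 held the FOXO letters and 3 a KLF word. Of all 32851 RefSeq windows of this length, 3.65% held the FOXO letters, 15.5% a KLF word (7.95% GGGTGTG) and 8.65% a TCF and LEF word. No member's window held a TCF and LEF word, and the windows of Lef1, Klf2, Klf3, Bach2 and Il7r held none of the 5 words. A match describes letters and was not tested as a binding site.

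Tcf7 (ENSMUSG00000000782, protein coding, GRCm38 chr11:52252371-52283014, minus strand) was nearly silent in Th1 cells and plainly present in Th17 cells. Th1 WT libraries held 6, 1 and 4 reads of it, or 0.435, 0.0784 and 0.278 CPM. Th1 KO libraries held 8, 12 and 14 reads, or 0.756, 0.834 and 1.13 CPM. In Th17 cultures WT libraries stood at 57.5, 67.6 and 67.5 CPM. The KO libraries there stood at 73.8, 111 and 78.1 CPM. Every Th17 library thus lay far above every Th1 library, and in both cultures all 3 KO libraries lay above all 3 WT libraries. Summed over a group, 11 reads gave 0.269 CPM in Th1 WT (exact 95% Poisson interval 0.134 to 0.481, counting error only) and 915 reads gave 59.8 CPM in Th17 WT (56.0 to 63.8). In the fit across 12189 genes by edgeR's quasi-likelihood test, Tcf7 rose 221-fold from Th1 to Th17 in WT (log2 fold change 7.78, SE 0.23, adjusted p = 1.09e-17), the 6th highest change of all genes tested. In KO it rose 87.3-fold (log2 6.45, SE 0.18, adjusted p = 2.16e-18), the 27th highest. Both calls held under all 21 alternative settings, with log2 changes of 6.85 to 8.29 in WT and 5.70 to 6.62 in KO. In bulk RNA, fewer cells with Tcf7 and less Tcf7 RNA per cell cannot be told apart.

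The KO to WT difference of Tcf7 narrowly missed the threshold in both cultures in the edgeR fit of all libraries, and passed it in both with no filter on low counts (adjusted p = 0.00706 in Th1 and 0.00420 in Th17). It also passed in both with neighbouring library codes taken as a block (adjusted p = 0.00672 and 0.00153). WT and KO cells grew together, so a KO library may share its culture with a WT library. The labels do not say that neighbouring codes share a culture, and the main fit does not model such pairs. In Th1 the log2 difference was 1.71 (SE 0.51, adjusted p = 0.0554, edgeR quasi-likelihood test), on 34 reads against 11. It passed in 9 of 21 alternatives, among them DESeq2 (adjusted p = 0.0356) and the fit without the 3 shallow libraries (adjusted p = 0.0163), and the adjusted p ran from 0.00672 to 0.550. Leaving out Th17 WT 1, Th17 KO 1 or Th17 KO 2 also moved it past the threshold, with adjusted p = 0.0396, 0.0371 and 0.0197, although no Th1 value changes there. In Th17 the difference was 0.38 (SE 0.12, adjusted p = 0.0635), and it passed in 3 of 21 alternatives, the third being the fit without Th17 KO 1 (0.48, adjusted p = 0.0361). The difference between these genotype differences was -1.34 (SE 0.52, adjusted p = 0.356).

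**Figure D1:**
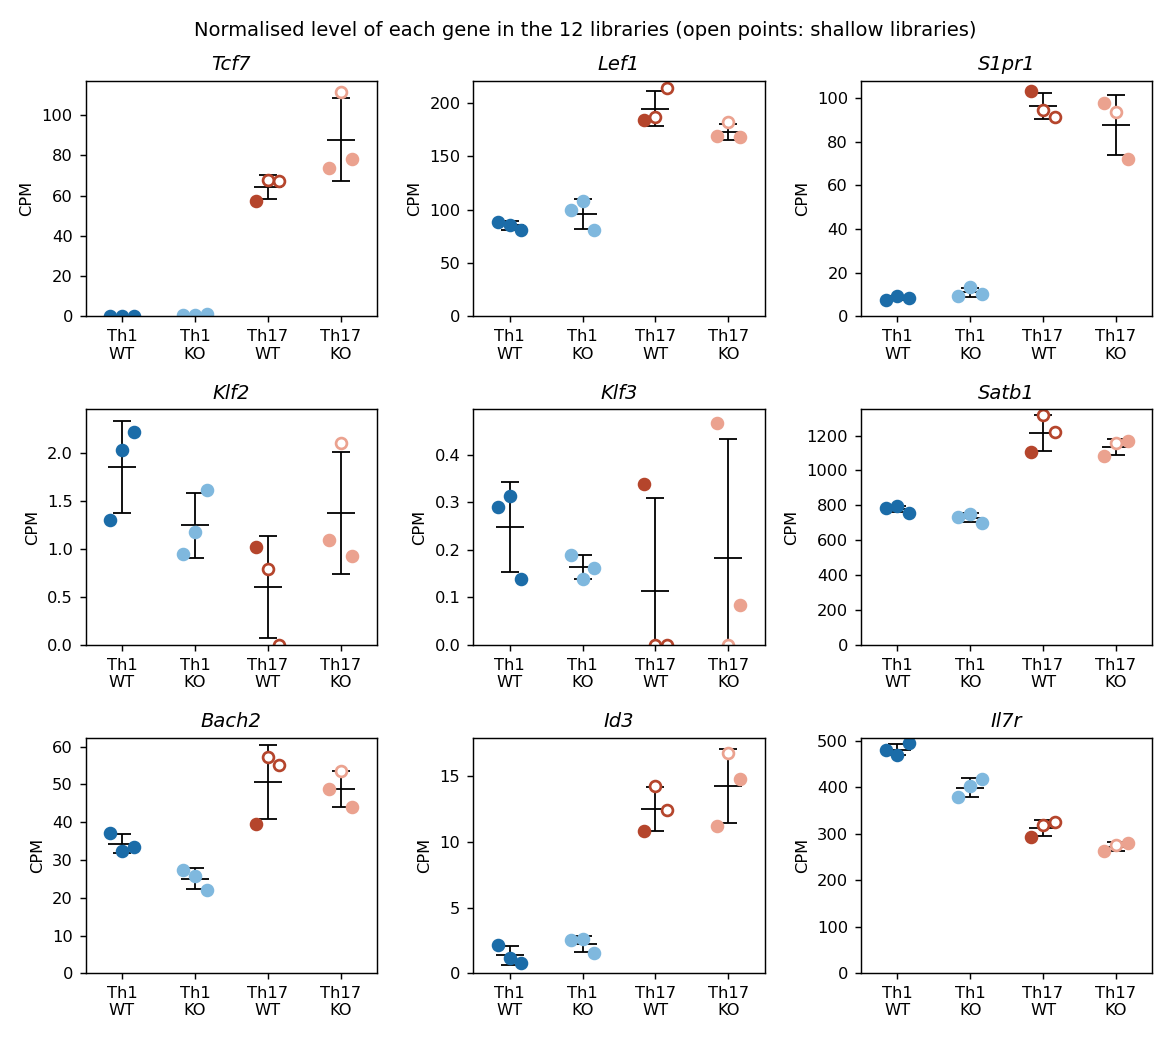
Level of each of the 9 genes (CPM, linear axis from 0, a separate scale per gene) in the 12 libraries, with group mean and SD bars (n = 3) and open points for the 3 shallow libraries. Tcf7, S1pr1 and Id3 are low in all 6 Th1 libraries and high in all 6 Th17 libraries, Il7r is higher in Th1, and Klf2 and Klf3 stay under 2.23 CPM everywhere.

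Lef1 (ENSMUSG00000027985, chr3:131110471-131224356, plus strand) was expressed in every group and was higher in Th17. Levels were 88.7, 86.0 and 81.2 CPM in Th1 WT and 99.5, 108 and 80.6 CPM in Th1 KO. They reached 184, 187 and 214 CPM in Th17 WT and 169, 182 and 168 CPM in Th17 KO. The cultures did not overlap. Lef1 rose 2.25-fold in WT (log2 1.17, SE 0.09, adjusted p = 2.94e-10) and 1.78-fold in KO (log2 0.83, SE 0.09, adjusted p = 2.73e-08) by the edgeR test. KO and WT overlapped in Th1 (log2 0.17, SE 0.08, adjusted p = 0.288), but without Th1 KO 3 the difference was 0.29 (adjusted p = 0.0310). In Th17 the 3 KO libraries lay just under the 3 WT libraries (log2 -0.16, SE 0.09, adjusted p = 0.371). The genotype differences of the 2 cultures differed by -0.34 (SE 0.12, adjusted p = 0.290), or -0.45 without Th1 KO 3 (adjusted p = 0.0450) and -0.33 with the block by library code (adjusted p = 0.0380). Exons of Lef1 share 1208 of their 8788 bases with the antisense gene Gm43352. The kit does not mark strand, so reads of the pair cannot be told apart within the shared bases.

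Klf2 (ENSMUSG00000055148, chr8:72319033-72321656, plus strand) and Klf3 (ENSMUSG00000029178, chr5:64803388-64832901, plus strand) were at the edge of detection in all groups. Klf2 gave 1.31, 2.04 and 2.22 CPM in Th1 WT, 0.945, 1.18 and 1.62 CPM in Th1 KO, 1.02, 0.791 and 0 CPM in Th17 WT, and 1.09, 2.10 and 0.924 CPM in Th17 KO. Only the WT cultures did not overlap, and the difference missed the threshold (log2 -1.04, SE 0.44, adjusted p = 0.0580, edgeR quasi-likelihood test). Without Th1 WT 1 it was -1.24 (adjusted p = 0.0286). The values of the shallow Th17 WT 2, Th17 WT 3 and Th17 KO 2 lie under what 3 counts give there. In KO the culture difference of Klf2 was -0.24 (SE 0.39, adjusted p = 0.634), and KO differed from WT by -0.56 in Th1 (SE 0.32, adjusted p = 0.413) and by 0.24 in Th17 (SE 0.52, adjusted p = 0.894). Klf3, a repressor of the same family, had 0 to 6 reads in any library, at most 0.467 CPM, and did not pass the filter on low counts, so it was not tested. It shares 404 exon bases with Gm20033 on the opposite strand.

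S1pr1 (ENSMUSG00000045092, chr3:115710433-115715072, minus strand), a gene that KLF2 is known to drive, was higher in Th17 cultures in both genotypes. Klf2 was at the edge of detection in all groups, and a link between the levels of these genes was not tested. S1pr1 stood at 7.55, 9.40 and 8.26 CPM in Th1 WT and 9.36, 13.5 and 10.3 CPM in Th1 KO. Th17 WT libraries reached 103, 94.5 and 91.4 CPM, and Th17 KO libraries reached 97.6, 93.5 and 72.1 CPM. All 6 Th17 libraries lay above all 6 Th1 libraries. The rise was 11.7-fold in WT (log2 3.55, SE 0.14, adjusted p = 3.18e-12) and 7.70-fold in KO (log2 2.94, SE 0.13, adjusted p = 1.12e-11), edgeR quasi-likelihood test. Genotypes overlapped in both cultures, with log2 differences of 0.41 in Th1 (SE 0.16, adjusted p = 0.194) and -0.19 in Th17 (SE 0.12, adjusted p = 0.467). The Th1 difference of S1pr1 passed with no filter on low counts (adjusted p = 0.0121) and with the block by library code (0.39, adjusted p = 0.0106). The difference between the genotype differences was -0.61 (SE 0.20, adjusted p = 0.265). It passed with no filter (-0.60, adjusted p = 0.00637), with the block (-0.51, adjusted p = 0.0203) and without Th17 KO 1 (-0.77, adjusted p = 0.0354).

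Satb1 (ENSMUSG00000023927, chr17:51736187-51833290, minus strand) had the highest CPM of the 9 genes in every group. It measured 786, 794 and 758 CPM in Th1 WT, 736, 752 and 701 CPM in Th1 KO, 1108, 1317 and 1218 CPM in Th17 WT, and 1084, 1158 and 1169 CPM in Th17 KO. The cultures were apart, and the rise was of one size in both genotypes, 1.56-fold each (log2 0.64, SE 0.06, adjusted p = 9.13e-09 in WT and 5.55e-09 in KO, edgeR). All 3 Th1 KO libraries lay under the 3 Th1 WT libraries, by a log2 difference of -0.10 that missed the threshold (SE 0.06, adjusted p = 0.501). In Th17 it was -0.09 (SE 0.06, adjusted p = 0.505), and 0.02 without the shallow libraries (adjusted p = 0.945). Its exons share 156 bases with Gm36931 and 128 with Gm6934.

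Bach2 (ENSMUSG00000040270, chr4:32238804-32586108, plus strand) was the transcription factor of the set with a genotype call. Th1 WT libraries gave 37.1, 32.3 and 33.5 CPM and Th1 KO libraries 27.4, 25.7 and 22.1 CPM, with no overlap. Bach2 was 1.37-fold lower in Th1 KO (log2 -0.45, SE 0.11, adjusted p = 0.0175, edgeR quasi-likelihood test). That call ended with DESeq2 (adjusted p = 0.0651), with libraries thinned to the smallest total (0.241), and without Th1 WT 1 (0.0809), Th1 KO 2 (0.0602) or Th1 KO 3 (0.0877), while the log2 difference stayed between -0.52 and -0.37. Th17 WT libraries gave 39.4, 57.3 and 55.0 CPM and Th17 KO libraries 48.7, 53.6 and 43.9 CPM, which overlapped (log2 0.02, SE 0.13, adjusted p = 0.983). The 2 highest Th17 WT values came from shallow libraries. From Th1 to Th17 Bach2 rose 1.88-fold in KO (log2 0.91, SE 0.11, adjusted p = 8.93e-07). In WT it rose 1.35-fold (log2 0.43, SE 0.12, adjusted p = 0.00573), but by 0.29 without Th17 WT 2 (adjusted p = 0.0551), by 0.20 without all shallow libraries (adjusted p = 0.182), and by 0.72 without Th17 WT 1. The difference between the genotype differences was 0.48 (SE 0.17, adjusted p = 0.276), and it passed with no filter on low counts (adjusted p = 0.0365) and with the block by library code (0.57, adjusted p = 0.00630). Bach2 and the antisense gene Bach2os share 537 exon bases.

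Id3 (ENSMUSG00000007872, chr4:136143497-136145755, plus strand) followed S1pr1 at a lower level. It gave 2.18, 1.18 and 0.763 CPM in Th1 WT, 2.55, 2.64 and 1.53 CPM in Th1 KO, 10.8, 14.2 and 12.5 CPM in Th17 WT, and 11.2, 16.8 and 14.8 CPM in Th17 KO. The cultures did not overlap. Id3 rose 8.64-fold in WT (log2 3.11, SE 0.28, adjusted p = 3.44e-09) and 5.90-fold in KO (log2 2.56, SE 0.24, adjusted p = 4.06e-09), edgeR quasi-likelihood test. KO differed from WT by 0.71 in Th1 (SE 0.32, adjusted p = 0.246), and by 1.22 without Th1 WT 1 (adjusted p = 0.0496), and by 0.16 in Th17 (SE 0.23, adjusted p = 0.807). The difference between these was -0.55 (SE 0.39, adjusted p = 0.731).

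Il7r (ENSMUSG00000003882, chr15:9505788-9530176, minus strand) went the other way, highest in Th1 WT and lowest in Th17 KO. Th1 WT gave 480, 470 and 495 CPM, Th1 KO 378, 402 and 418 CPM, Th17 WT 293, 318 and 325 CPM, and Th17 KO 262, 275 and 280 CPM. No group overlapped the next in that order. Il7r fell 1.55-fold from Th1 to Th17 in WT (log2 -0.63, SE 0.06, adjusted p = 5.08e-09) and 1.47-fold in KO (log2 -0.56, SE 0.06, adjusted p = 2.85e-08), edgeR quasi-likelihood test. It was 1.20-fold lower in Th1 KO than in Th1 WT (log2 -0.27, SE 0.06, adjusted p = 0.00652), a call that ended without Th1 KO 1 (log2 -0.23, adjusted p = 0.0670) and with thinned libraries (adjusted p = 0.0562). In Th17 the difference of -0.19 missed the threshold (SE 0.06, adjusted p = 0.0900), and it passed without Th17 WT 1 (-0.24, adjusted p = 0.0489) and with the block by library code (adjusted p = 0.0180). The genotype differences of the cultures differed by 0.08 (SE 0.09, adjusted p = 0.857).

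**Figure D2:**
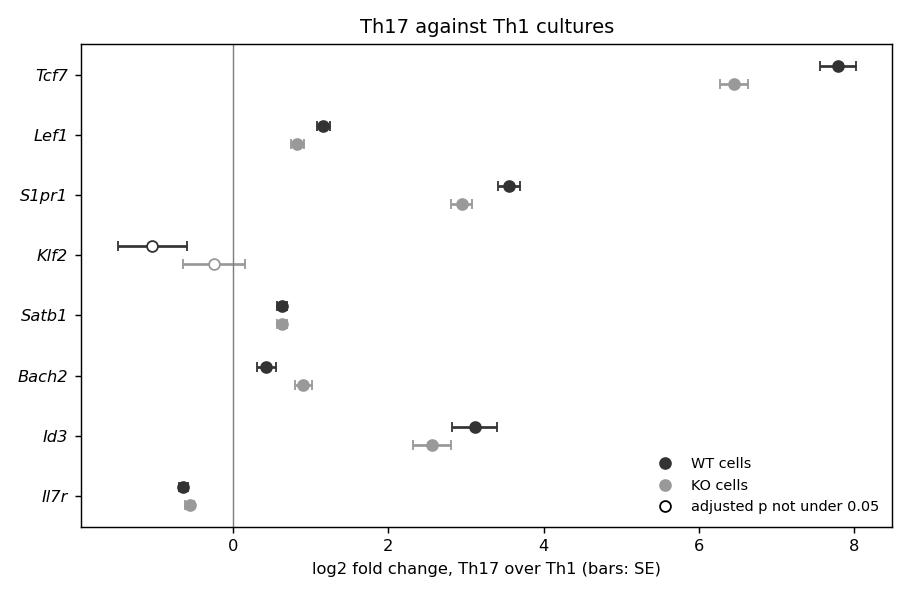
Log2 fold change of Th17 over Th1 cultures (horizontal axis, bars SE) of the 8 tested genes in WT (dark) and KO (grey) cells, filled where the edgeR adjusted p is under 0.05. Tcf7 lies farthest right at 7.78 and 6.45, S1pr1 and Id3 follow, Il7r alone is called on the left, and both Klf2 points are open.

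Counted together, 6 of the 8 tested genes rose from Th1 to Th17 in WT (Tcf7, Lef1, S1pr1, Satb1, Bach2 and Id3), Il7r fell and Klf2 did not pass. The same 6 rose and Il7r fell in KO. Of all genes tested 47.1% were called in WT (23.5% higher, 23.6% lower) and 53.6% in KO (26.9% higher, 26.7% lower). The median log2 change of the 8 was 0.90 in WT and 0.87 in KO, against -0.01 and 0.00 over all genes. The members were chosen with earlier results of these data known, so these counts and medians describe the set and do not test it. Libraries of the cultures did not overlap for 8 of the 8 in WT and 7 in KO, where 52.1% and 55.7% of all genes did not. The WT count includes Klf2, on 12, 2 and 0 reads in the Th17 WT libraries. A count of 0 in the shallow Th17 WT 3 allows 3.11 CPM, above every Th1 WT value of Klf2 (at most 2.22 CPM). Tcf7 passed the filter on low counts through its Th17 libraries, so its place among the tested genes already reflects that difference. Without the 3 shallow libraries 6 of the 8 were called in WT, where the 1 Th17 library left has no replicate and borrows the spread of the remaining groups, and 7 in KO.

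Fewer of these genes passed the edgeR test by genotype than by culture. In Th1, 0 rose and 2 fell (Bach2 and Il7r) of 8 tested, where 4.61% of all genes were called (1.69% higher, 2.92% lower). This count was 1 without Th1 KO 1 or without Th1 KO 2, and 0 with thinned libraries. It was 4 with no filter on low counts and 4 with the block by library code. In Th1, 6 of the 8 had an unadjusted p under 0.05 (Tcf7, Lef1, S1pr1, Bach2, Id3 and Il7r). The share of all genes under this unadjusted level was not counted. Unadjusted counts here and in the lists below therefore have no background to be read against. KO and WT did not overlap in Th1 for Tcf7, Satb1, Bach2 and Il7r, 4 of 8, where 24.5% of all genes did not. In Th17 the edgeR test called 0 of 8 in either direction, where 5.83% of all genes were called (1.81% higher, 4.02% lower). DESeq2 and limma-voom also called 0 there, 2 had an unadjusted p under 0.05, and the count was 1 without Th17 WT 1 or Th17 KO 1. With no filter on low counts it was 1, and with the block by library code 2. Tcf7, Lef1 and Il7r did not overlap between genotypes in Th17, 3 of 8, where 18.5% of all genes did not. The test of the difference between the genotype differences called 0 of 8 with edgeR, DESeq2 and limma-voom, where edgeR called 0.591% of all genes. The count called was 1 without Th1 KO 3 or without Th17 KO 1. At the looser unadjusted p under 0.05 there were 4 (Tcf7, Lef1, S1pr1 and Bach2), which cannot be set against the 0.591%. The median log2 difference of the 8 was 0.04 in Th1 and -0.04 in Th17, and 0.00 over all genes in both. An exact permutation test of 3 against 3 cannot give a p under 0.1. The cultures' comparisons and the genotypes' comparisons share libraries and are not independent of each other.

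**Figure D3:**
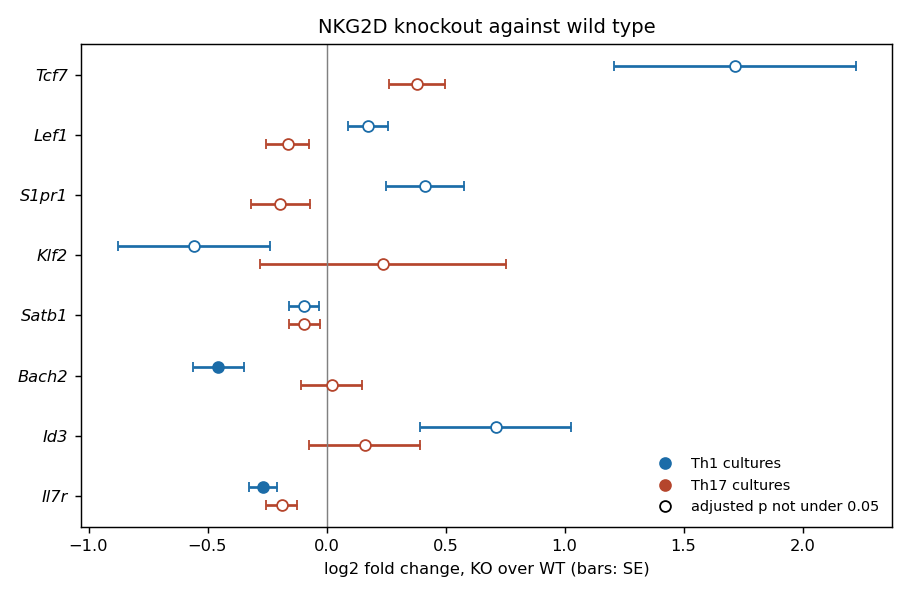
Log2 fold change of KO over WT (horizontal axis, bars SE) of the 8 tested genes in Th1 (blue) and Th17 (red) cultures, filled where the edgeR adjusted p is under 0.05. Bach2 and Il7r in Th1 are the filled points, at -0.45 and -0.27, and Tcf7 lies right of 0 in both cultures with open points.

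Per kilobase of annotated exon, the scale on which genes can be set side by side, Il7r led in Th1 WT with a mean level of 103 CPM per kb, then came Satb1 (41.0), Lef1 (9.70), Bach2 (3.45), S1pr1 (2.76), Klf2 (1.004), Id3 (0.766), Tcf7 (0.1005) and Klf3 (0.0220). Only Klf2 and Id3 overlapped among neighbours in that order. Th17 WT put Tcf7 (24.5 CPM per kb) beside Lef1 (22.2), after Il7r (67.0), Satb1 (63.8) and S1pr1 (31.6) and before Id3 (6.99), Bach2 (5.09), Klf2 (0.326) and Klf3 (0.01005). There Il7r overlapped Satb1, Tcf7 overlapped Lef1 and Klf2 overlapped Klf3. In Th17 KO Tcf7 (33.4 CPM per kb) overlapped S1pr1 (28.8) and lay above Lef1 (19.7). In Th1 KO, S1pr1 (3.62) lay above Bach2 (2.52) and Tcf7 (0.345) stayed above Klf3 alone. The order depends on the length used: per kilobase of the longest transcript Satb1 led in Th17 WT (194 against 88.2 for Il7r), and Lef1 (53.3) lay above S1pr1 and Tcf7 (26.0).

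**Figure D4:**
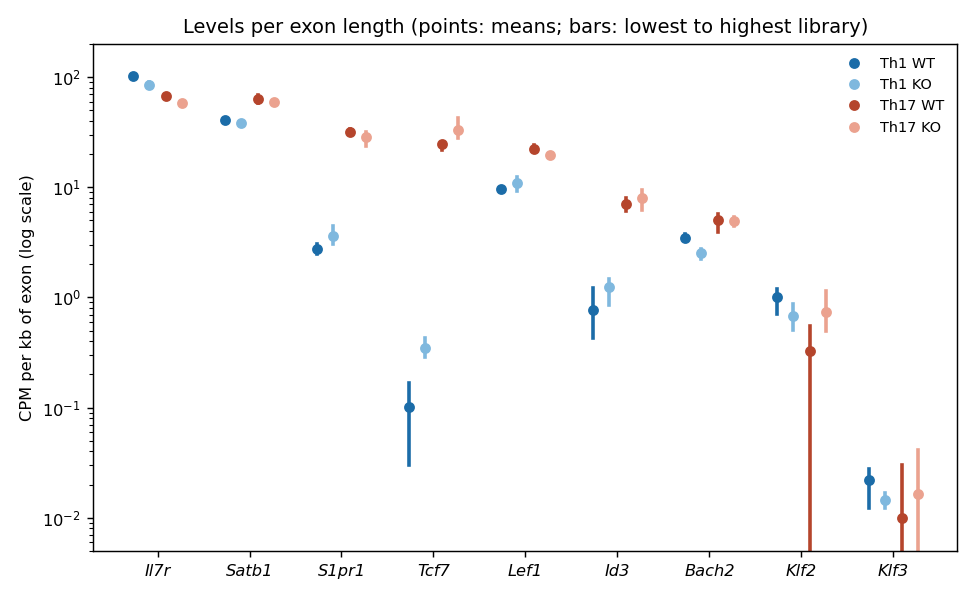
Level per kilobase of exon (CPM per kb, log axis) of the 9 genes in the 4 groups, points at group means and bars from the lowest to the highest library (a bar that reaches the bottom has a library at 0). Tcf7 moves from 0.1005 in Th1 WT to 24.5 in Th17 WT, while Il7r and Satb1 stay at the top in every group.

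The genes most like Tcf7 over the 12 libraries were Lrrk2, Il23r, Ntrk3, Gucy1a1 and Lum, by the root mean square difference of centred log2 CPM among 9221 genes (0.588, 0.624, 0.730, 0.760 and 0.778). Lrrk2, a kinase, averaged 0.297 CPM in Th1 WT and 0.424 in Th1 KO, against 36.5 in WT and 63.2 in KO of the Th17 cultures. Il23r, a subunit of the IL-23 receptor, averaged 0.321, 0.554, 41.4 and 71.1 CPM in the same order. Ntrk3, a receptor tyrosine kinase, had 0 counts in all Th1 libraries and 9.61 ± 4.71 (Th17 WT) and 18.2 ± 5.36 CPM (Th17 KO; SD, n = 3). Lrrk2 and Il23r were also nearest with a prior count of 0.5 or 5, and Ntrk3 left the first 5 with a prior count of 5. Among the members the closest pairs were Satb1 with Bach2 (0.183), Lef1 with Satb1 (0.237) and Lef1 with Bach2 (0.290), and S1pr1 lay nearest to Id3 (0.476). The member nearest to Tcf7 was S1pr1 (1.84). These distances share the libraries and their culture split, and are descriptions with no test.

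Other genes of naive and memory T cells divided. Of 17 tested (19 listed), 8 rose and 4 fell from Th1 to Th17 in WT, and 9 rose and 4 fell in KO, with median log2 changes of 0.21 and 0.33. Over all genes 47.1% were called in WT and 53.6% in KO, with medians of -0.01 and 0.00. Between genotypes 4.61% of all genes were called in Th1 and 5.83% in Th17. Ccr7, the lymph node homing receptor, rose by 3.95 (SE 0.17, adjusted p = 6.72e-10) and Cd27, a costimulatory receptor of memory cells, by 2.02 (SE 0.17, adjusted p = 2.54e-10) in WT (edgeR quasi-likelihood test). Foxp1, which enforces quiescence in naive cells, fell by 1.82 (SE 0.11, adjusted p = 1.32e-12) in WT and by 1.29 in KO. Bcl2, Txk and Rasgrp2 were the other 3 that fell in both genotypes, by 0.92, 1.22 and 2.07 in WT, and the Txk call ended without Th17 WT 1 (adjusted p = 0.167). Between genotypes in Th1, 0 rose and 4 fell: Btg1, an antiproliferative gene (log2 -0.51, SE 0.06, adjusted p = 1.13e-05), Foxp1 (-0.55, SE 0.08, adjusted p = 0.000101), Foxo1 (-0.43, SE 0.07, adjusted p = 0.000334) and Txk (-0.79, SE 0.20, adjusted p = 0.0271). The count was 3 with any 1 of the Th1 libraries left out, since Txk missed the threshold there. In Th17, Actn1 alone rose (0.66, SE 0.14, adjusted p = 0.00497) and Rasgrp2 alone fell (-1.38, SE 0.27, adjusted p = 0.00188), and Rasgrp2 was not called without Th17 WT 1 (adjusted p = 0.0933).

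**Figure D5:**
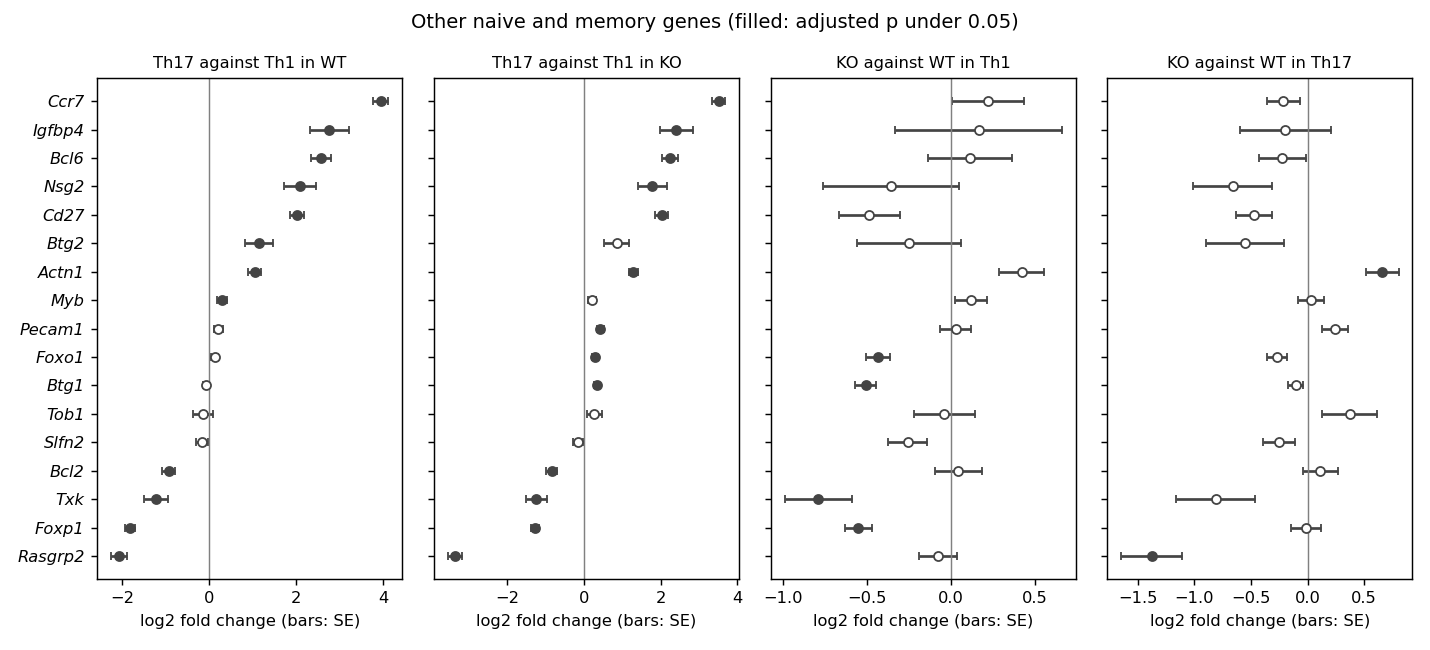
Log2 fold change (horizontal axes, bars SE) of 17 other naive and memory genes in the 4 comparisons, filled where the edgeR adjusted p is under 0.05. Ccr7 is the highest culture difference and Rasgrp2 the lowest, and in Th1 the 4 filled genotype points all lie left of 0.

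Partners and targets of the TCF and LEF factors moved in both directions, as genes at large did. Over all genes 23.5% rose and 23.6% fell by culture in WT, and 26.9% and 26.7% in KO. By genotype 4.61% were called in Th1 and 5.83% in Th17. Of 13 tested (17 listed), 3 rose and 2 fell with Th17 culture in WT, and 3 rose and 6 fell in KO. Tle1, a corepressor bound by TCF-1, rose by 1.66 in WT (SE 0.21, adjusted p = 2.46e-07, edgeR), and Ctnnb1, which encodes beta-catenin, fell by 0.32 in KO (SE 0.06, adjusted p = 9.86e-05). The WT count of 5 was 2 without Th17 WT 1. Between genotypes 2 rose (Tle1 and Tle4) and 2 fell (Tle3 and Gsk3b) in Th1, and 0 rose and 2 fell (Tle3 and Gsk3b) in Th17. Tle3, another corepressor, fell by 0.42 (SE 0.07, adjusted p = 0.000152) in Th1 and by 0.41 (SE 0.07, adjusted p = 0.000735) in Th17. Gsk3b was not called in Th17 without the shallow libraries (adjusted p = 0.0869), and the Tle4 call in Th1 (0.75, adjusted p = 0.0205) ended in 6 of the alternatives, among them leaving out Th1 WT 1, Th1 WT 2, Th1 KO 1 or Th1 KO 3. Tcf7l1 and Tcf7l2, the other TCF genes, had at most 2 reads and were not tested.

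Of 8 tested KLF relatives (10 listed), 2 rose and 1 fell with Th17 culture in WT, and 3 rose and 2 fell in KO. Of all genes tested, 47.1% were called by culture in WT and 53.6% in KO, and by genotype 4.61% in Th1 and 5.83% in Th17. Klf4 rose by 1.22 in WT (SE 0.25, adjusted p = 0.000292) and in KO (SE 0.23, adjusted p = 8.43e-05), edgeR. The WT count of 3 was 1 without Th1 WT 2 or without Th17 WT 1. By genotype 0 of 8 passed in Th1 (1 had an unadjusted p under 0.05). Klf7 (-0.26, adjusted p = 0.141) passed there with no filter on low counts (adjusted p = 0.0188) and with the block by library code (adjusted p = 0.0351), but not with DESeq2 or limma-voom. Klf13 alone fell in Th17 (-0.33, SE 0.07, adjusted p = 0.00566), not called without Th17 KO 1 (adjusted p = 0.0863). Of 11 tested genes of S1P handling and lymph node traffic (13 listed), 6 rose and 2 fell with Th17 culture in WT and 4 rose and 3 fell in KO. Cd69, whose product removes S1PR1 from the cell surface, rose with S1pr1 itself, by 1.36 in WT (SE 0.11, adjusted p = 1.26e-08) and 1.55 in KO (SE 0.10, adjusted p = 5.97e-10). S1pr4 fell by 0.28 in WT and by 0.46 in KO. Both calls ended with thinned libraries (adjusted p = 0.171 and 0.219), and the WT call also without the shallow libraries (adjusted p = 0.0999). By genotype 0 of 11 changed in Th1 by edgeR's test (0 had an unadjusted p under 0.05), with Sphk2 at the smallest p (adjusted p = 0.706, 1 with DESeq2 and 0.424 with limma-voom). In Th17 Grk2 alone fell (-0.21, adjusted p = 0.0377), and the Grk2 call was lost in 11 alternatives, 7 of which left out a single library.

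Of 5 tested E and ID proteins (6 listed), 0 rose and 3 fell with Th17 culture in WT, while Id3 rose, and 0 rose and 2 fell in KO. Beside this list and the next, all genes were called by culture at 47.1% in WT and 53.6% in KO. The genotype shares were 4.61% in Th1 and 5.83% in Th17. Id2, which also blocks E proteins and favours effector cells, fell by 0.75 in WT (SE 0.15, adjusted p = 0.00265, edgeR). Tcf4, an E protein gene unrelated to TCF-1 despite its symbol, fell by 0.80 in WT (SE 0.15, adjusted p = 0.000114), and was lower in Th1 KO than in Th1 WT (-0.75, SE 0.12, adjusted p = 0.000268). That genotype call ended with thinned libraries (adjusted p = 0.0799). The 2 that fell with Th17 culture in KO were Id1 and Tcf3, and neither Id2 nor Tcf4 was called there. Tcf3 was the 1 called in Th17 by genotype (-0.28, edgeR adjusted p = 0.0283). The call was lost in 9 alternatives, among them DESeq2 (adjusted p = 0.0828), limma-voom (0.0596), no filter (0.0520) and only the groups compared (0.112). It also ended without Th17 WT 2, Th17 WT 3, Th17 KO 1 or Th17 KO 3 (0.0633 to 0.140). Without the shallow libraries the log2 difference of Tcf3 was -0.18. Of 13 tested effector factors that oppose the naive state (14 listed), 7 rose and 3 fell with Th17 culture in WT, and 6 rose and 1 fell in KO. Bhlhe40 rose by 0.96 (SE 0.06, adjusted p = 1.77e-12) and Zeb2 by 1.56 (SE 0.12, adjusted p = 6.63e-11) in WT. By genotype Hif1a alone passed in Th1 (-0.24, adjusted p = 0.0494) and Runx3 alone in Th17 (-0.49, adjusted p = 0.0315), and each call was lost in 8 alternatives, for Hif1a with any Th1 library or Th17 WT 3 left out, and for Runx3 with any Th17 library but Th17 KO 2 left out.

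Around Il7r, 15 genes of IL-7 receptor signalling were tested (16 listed), of which 7 rose and 4 fell with Th17 culture in WT, and 7 rose and 5 fell in KO. The shares called over all genes were 47.1% and 53.6% by culture, and 4.61% (Th1) and 5.83% (Th17) by genotype. Stat5a, which carries the receptor's signal, rose by 1.06 in WT (SE 0.07, adjusted p = 2.57e-12, edgeR) while Il7r fell, and Bcl2, a survival target, fell by 0.92. Between genotypes Stat5b rose by 0.48 in Th1 (SE 0.07, adjusted p = 2.67e-05) and by 0.50 in Th17 (SE 0.07, adjusted p = 6.52e-05). Bcl2l11, which encodes the death factor BIM, fell by 0.52 (SE 0.10, adjusted p = 0.00452) and by 1.63 (SE 0.16, adjusted p = 4.01e-06). Foxo1 was the other gene that fell in Th1, and Jak1 the other in Th17 (-0.27, adjusted p = 0.0454, lost in 14 alternatives), where 5 were called without Th1 KO 3. Of 6 tested relatives and partners of BACH2 and SATB1 (8 listed), 1 rose and 2 fell in WT and 1 rose and 4 fell in KO. Bach1 fell by 1.10 in WT (SE 0.16, adjusted p = 4.10e-06) and by 1.41 in KO (SE 0.15, adjusted p = 1.30e-08), the reverse of Bach2. None of the 6 passed by genotype in either culture with edgeR, and 0 had an unadjusted p under 0.05.

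Some markers of other cells moved with the culture as these genes did. The sum of 6 B cell markers was 0.278 to 1.05 CPM in Th1 and 8.31 to 23.2 CPM in Th17, carried by Ebf1 (at most 0.157 CPM in Th1, 7.27 to 20.8 in Th17), while Cd79b reached at most 1.26 CPM and Ms4a1 0.588 in any library. The sum of 5 genes of MHC class II presentation was 13.5 to 17.4 CPM in Th1 and 62.3 to 92.3 in Th17, mostly Cd74 and H2-Ab1. The sum of 10 dendritic cell and macrophage markers was 5.69 to 7.94 CPM in Th1 and 8.31 to 11.6 in Th17, with Clec9a at 0 counts in every group, and 6 NK cell markers summed to at most 1.26 CPM with Ncr1 at 0. The 2 CD8 T cell markers summed to 1.04 to 6.61 CPM in all libraries. Because Lum was near Tcf7, 7 fibroblast markers were added after its value was seen: their sum was 0.208 to 0.705 CPM in Th1 and 24.7 to 66.1 in Th17, nearly all Lum, with Pdgfra and Pdgfrb at 0 counts in all Th17 libraries. Leaving out the dominant identifier, mitochondrial RNA made up 14.2% to 15.1% of counts in Th1. The share was 16.9% to 18.6% in Th17 WT, and Th17 KO had 19.0% to 20.8%. The part of any of these in the changes of the 9 genes was not tested.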

How the data were processed

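Per the labels' protocols, poly-A RNA of 12 sorted cell samples was turned into cDNA by template switching, tagmented and sequenced from both ends, without strand marks. The submitters' processing notes name TopHat2, Bowtie2, featureCounts and the build GRCm38 (mm10). Versions and settings are not given in the sources used here. What the authors deposited are raw read counts per Ensembl gene, not normalised by the authors, as whole numbers with a different total in each file show. GENCODE named 37693 of 39179 identifiers. Labels gave no replicate numbers, so libraries carry numbers in order of deposit, which serve as names only.

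Counts were scaled by TMM and filtered with filterByExpr in edgeR 4.0.16, which kept 12189 genes, and all 12 libraries were fitted together with the quasi-likelihood F-test and Benjamini-Hochberg adjustment over all genes in each of 5 comparisons (threshold 0.05). SE is the log2 fold change over the root of F. The test was checked on simulated counts. The members and lists were chosen with earlier results of these data known. All members are named. Each other list names up to 3 genes of smallest p that passed, or the 1 of smallest p, and genes beyond these, where 5 or fewer passed in a direction, were named after their values were seen. The lists cover other naive and memory genes, TCF and LEF partners and WNT targets, effector factors, KLF relatives, E and ID proteins, S1P and lymph node traffic, IL-7 receptor signalling, relatives of BACH2 and SATB1, and markers of CD4 T, CD8 T, B, dendritic, NK and MHC class II cells. Some listed genes are not reported here and are left out of the lists' counts. The 5 genes nearest to Tcf7 came from genes with at least 5 CPM in a group, with a prior count of 2. Alternatives were RLE size factors, no filter, DESeq2 1.42.0, limma-voom with sample weights (limma 3.58.1), thinned libraries, only the groups compared, a block by library code, no shallow libraries (under 5000000 counts), no dominant identifier, and each library left out. R 4.3.3 and Python 3.11.15 were used.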

Additional observations from a re-analysis of the deposited data

Results flagged for a closer look

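By edgeR's quasi-likelihood test of the difference between the genotype differences (Th17 minus Th1, log2, adjusted p over all genes), 0 of the 8 tested members passed, against 2 with no filter on low counts and 3 with the block by library code. In the other lists 4 genes passed, where 0.591% of all genes did. Bcl2l11 differed by -1.11 (SE 0.19, adjusted p = 0.00721), since KO lay below WT by 1.63 in Th17 and by 0.52 in Th1. That call ended with thinned libraries (adjusted p = 0.0647) and without Th17 KO 3 (adjusted p = 0.0599). Tcf4 differed by 0.94 (SE 0.21, adjusted p = 0.0311), Btg1 by 0.40 (SE 0.09, adjusted p = 0.0416) and Rasgrp2 by -1.30 (SE 0.29, adjusted p = 0.0350). Each of these 3 calls ended without the shallow libraries (adjusted p = 0.106 for Tcf4, 0.140 for Btg1 and 0.0978 for Rasgrp2) and in several fits that left out 1 library (adjusted p up to 0.173, 0.140 and 0.282).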

How the results depend on the processing

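The counts of the 8 tested genes called in the culture comparisons kept within 1.5 times under every alternative, 6 to 8 in WT and 7 in KO with each library left out. In the comparison of KO with WT in Th1 the count of 2 became 4 with no filter and 4 with the block by library code (Tcf7 and S1pr1 joining Bach2 and Il7r in both), 0 with thinned libraries, and 1 to 3 with a library left out. In Th17 the count of 0 became 1 with no filter (Tcf7), 2 with the block (Tcf7 and Il7r) and 0 to 1 with a library left out. For the difference between genotype differences the count of 0 became 2 with no filter (S1pr1 and Bach2), 3 with the block (Lef1, S1pr1 and Bach2) and 0 to 1 with a library left out. The block takes neighbouring library codes as 1 culture, which the labels do not say. Deviations of such pairs from their group means correlated at 0.136, 0.0287 and 0.166 in Th1 and 0.226, 0.0259 and -0.0622 in Th17. Other WT and KO pairs of a culture ran from -0.158 to 0.0241 in Th1, all below the neighbouring pairs. In Th17 they ran from -0.186 to 0.109 and overlapped the neighbouring pairs. The main fit did not take the codes as pairs, and whether they are pairs is not known.

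Directions reversed only for differences near 0 that passed no test. For KO against WT in Th17, Klf2 was -0.017 and Satb1 0.018 without the shallow libraries, and Bach2 was -0.030 with DESeq2, -0.020 with limma-voom, -0.143 thinned and -0.265 to 0.163 with a library left out, while Id3 was -0.037 to 0.351. For the difference between differences Satb1 was -0.0044 with RLE, -0.0028 with DESeq2, -0.015 with limma-voom, -0.00099 without the dominant identifier and -0.064 to 0.067 with a library left out. Of 825 alternative values of the tested members, 771 kept direction and side of the threshold.

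Over all genes, the 562 calls of KO against WT in Th1 became 922 with only the groups compared, 303 with DESeq2, 1074 with limma-voom, 152 thinned, 1315 with the block and 260 to 679 with a library left out. The 711 in Th17 became 356 with only the groups compared, 463 with limma-voom, 315 thinned, 1117 with the block, 319 without the shallow libraries and 411 to 713 with a library left out. The 72 of the difference became 207 with no filter, 26 thinned, 329 with the block and 38 to 108 with a library left out. Thinning left 3291 of 5738 culture calls in WT and 3563 of 6534 in KO. Thinning and left-out libraries reduce the reads or samples behind a test, and the cause of the other shifts was not tested. Depth limits Tcf7 in Th1, and Klf2 and Klf3 in all groups.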
